A study of Homo sapiens with 6 samples.

Results

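eIF4F is the complex that binds the cap of an mRNA and unwinds its leader so that a ribosome can load. The genes described here code for some of its parts and for relatives, cofactors and inhibitors of these. They are 10 of the 19775 genes that the arrays measured with a probe set assigned to a single symbol. The cofactors are EIF4B and EIF4H, the cap-binding proteins EIF4E and EIF4E2, the scaffold EIF4G1 and its relative EIF4G2, the helicase relative EIF4A3, and the inhibitors EIF4EBP1, EIF4EBP2 and PDCD4. The choice was made by gene name and used no measured value, although earlier results of these data were known when it was made. Together the genes have 26 probe sets. The one with the highest mean over the arrays represented each gene and the others are given beside it.

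Messenger RNA was measured on 6 Affymetrix arrays in A375, an established human melanoma line with an activated BRAF kinase. In all 6 samples the EIF4B gene had been knocked out with CRISPR. The cells were then transduced by lentivirus with LacZ, giving KO/LacZ (here the knockout cells), or with wild-type eIF4B, giving KO/eIF4B (here the rescued cells), and unedited A375 cells were not analysed here. Each line received vehicle (DMSO) or 10 µM vemurafenib, the latter for 6 h or 18 h, with 1 array for each of the 6 combinations. Vemurafenib inhibits mutant BRAF. How long vehicle was applied is not stated in the labels. Nor do they state whether the knockout is 1 clone or whether each array had its own culture. Apart from differences between the lines in drug response, the spread behind every p-value may therefore be technical.

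In eIF4F, eIF4E holds the cap, eIF4G is the scaffold and eIF4A is the RNA helicase. eIF4B and eIF4H stimulate the helicase. The 4E-BPs compete with eIF4G for eIF4E until mTORC1 phosphorylates them, and PDCD4 binds eIF4A and keeps it out of the complex. In melanoma, signals from BRAF and from mTORC1 meet at this complex. mRNA levels show neither phosphorylation nor the assembly of the complex.

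The median probe set read 5.2 to 5.22 log2 units on each array. DUSP6, a target of ERK signalling, changed by -5.19 log2 units at 6 h and by -5.31 at 18 h. Of 8 pigment cell markers 7 had a mean of at least 5 log2 units. SOX10 read 9.86 to 10.57 and MITF 8.10 to 9.97, whereas MLANA read 4.76 to 4.99, TYR 5.44 to 5.72 and PMEL 5.54 to 5.81. S100B read 7.42 to 8.44, CSPG4 7.45 to 8.36 and PAX3 7.81 to 8.26. At 18 h MITF changed by 1.63 and CSPG4 by -0.74, both called, and the other pigment markers tested were not called. Of 5 epithelial markers EPCAM and CDH1 stayed at or below 3.24, whereas the keratins KRT18 (11.7 to 12.75), KRT14 (8.85 to 10.8) and KRT8 (7.94 to 8.94) were bright. At 18 h KRT14 changed by 1.45 log2 units, KRT8 by 0.39 and KRT18 by -0.78, all called, and KRT8 was also called between the lines (0.49, knockout minus rescued). The epithelial list summed to 6290 to 7870 intensity units under vehicle, 5390 to 6710 at 6 h and 4880 to 6180 at 18 h. Of 4 blood markers 3 had a single-symbol probe set: PTPRC stayed at or below 3.17, CD3E read 5.68 to 5.85, and LYZ read 6.06 to 7.15 and changed by -0.86 at 18 h, called. The blood list summed to 173 to 205 under vehicle, 160 to 194 at 6 h and 128 to 134 at 18 h. The 4 fibroblast markers summed to 420 to 521 intensity units (vehicle), 602 to 680 (6 h) and 1070 to 1350 (18 h). Of these LUM, DCN and PDGFRB changed by 2.49, 1.78 and 1.17 at 18 h, all called, and COL1A1 by 0.02, not called. The part of all these marker shifts in the results for line and drug was not tested. In such bulk RNA, fewer cells of a kind and less RNA per cell cannot be told apart.

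After 18 h of vemurafenib, the mRNAs of the cap-binding protein EIF4E, the scaffold EIF4G1, its relative EIF4G2 and the helicase relative EIF4A3 fell. In the fit over both lines these falls were 1.26-fold to 1.6-fold. The helicases of eIF4F itself, EIF4A1 and EIF4A2, were not tested here. The mRNA of the inhibitor EIF4EBP2 rose by 1.39-fold. EIF4B, EIF4H, EIF4E2 and EIF4EBP1 did not pass the test, and the only single-symbol probe set of PDCD4 was too dim to be tested. Of the 9 members tested 5 changed, which is near the 51.4% of all 13506 genes that changed at 18 h, so the number of changed members does not set the group apart. By direction, 4 of the 9 were lower and 1 was higher, where 23.3% of all genes were lower and 28.1% higher. With each array centred on a median, higher genes made up 41.8% of all calls at 18 h in place of 54.7%. The members again divided into 4 lower and 1 higher. Centring moved the median change of all genes from 0.01 to -0.09. This exceeds the spread of the probe set medians given above, so another median was used. The median change of the 9 members was -0.33 log2 units, and that of all genes tested was 0.01. All tests are from an additive limma fit of line and treatment with Benjamini-Hochberg adjustment over all 13506 genes. Its error is the disagreement between the lines over the treatments, which includes any difference in their drug response.

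**Figure D1:**
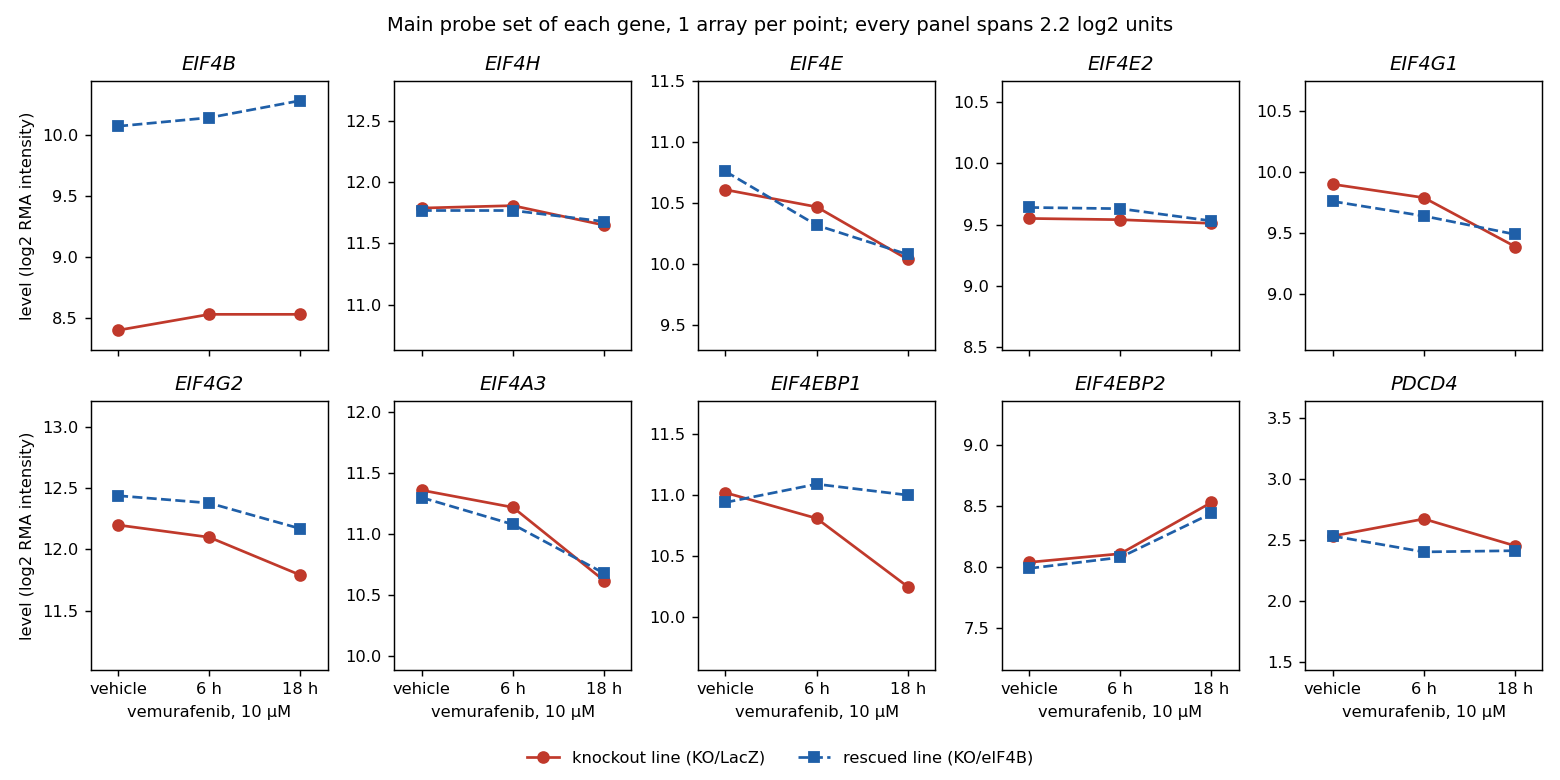
Level of the main probe set of each of the 10 genes (vertical axis, log2 RMA intensity) under vehicle, 6 h and 18 h of 10 µM vemurafenib (horizontal axis), with 1 array per point, circles for knockout cells and squares for rescued cells. EIF4E, EIF4A3, EIF4G1 and EIF4G2 were lower at 18 h than under vehicle in both lines, EIF4EBP2 was higher in both, and EIF4EBP1 was lower at 18 h in knockout cells (10.25 against 11.02) and not in rescued cells (11.00 against 10.94).

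EIF4E, the protein that recognises the cap, read 10.61, 10.47 and 10.04 log2 units in knockout cells (vehicle, then 6 h, then 18 h, the order used throughout), and 10.76, 10.32 and 10.08 in rescued cells. Both 18 h arrays lay below all other arrays, and the vehicle arrays were the highest. The change from vehicle to 18 h was -0.62 (SE 0.09, a 1.54-fold fall, limma adjusted p = 0.0032), and from 6 h to 18 h it was -0.33 (limma adjusted p = 0.037). EIF4E had 2 further probe sets with a mean of at least 5, and they fell by 0.64 and 0.78 at 18 h (limma adjusted p = 0.0018 and 0.00085 over 24979 probe sets). The remaining 2, with levels from 3.90 to 4.80, were too dim to be tested. The fall from 6 h to 18 h was no longer called without the knockout 6 h array (-0.21, adjusted p = 0.21), without the knockout 18 h array (-0.31, 0.16), without the rescued 18 h array (-0.36, 0.096) or with no filter on dim genes (-0.33, 0.064). Adjusted p for that fall ran from 0.0068 to 0.21 over 13 alternatives.

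EIF4A3 is a DEAD-box helicase of the eIF4A family that works in the exon junction complex rather than in eIF4F. It read 11.36, 11.22 and 10.62 in knockout cells and 11.30, 11.08 and 10.68 in rescued cells. Its order was vehicle, then 6 h, then 18 h in both lines, and the 18 h arrays lay far below the rest. The change at 18 h against vehicle was -0.68 (SE 0.07, 1.6-fold, limma adjusted p = 0.0014), lower than that of all but 6.93% of genes tested. From 6 h to 18 h it was -0.49 (limma adjusted p = 0.0081, and 0.062 with a change of -0.42 without the knockout 6 h array, the highest of 13 alternatives, which began at 0.00036).

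EIF4G1, the scaffold that joins eIF4E, eIF4A and the ribosome-bound eIF3, read 9.90, 9.79 and 9.39 in knockout cells and 9.76, 9.64 and 9.49 in rescued cells. Vehicle and 18 h arrays did not overlap, as for 7 of the 9 members and 71% of all genes tested. The change at 18 h was -0.39 (SE 0.08, 1.31-fold, limma adjusted p = 0.014). It was -0.51 in knockout cells and -0.27 in rescued cells. The second EIF4G1 probe set differed more between the lines, at -0.65 and -0.06, and its mean change of -0.36 was not called (limma adjusted p = 0.091). From 6 h to 18 h the main set changed by -0.27 (limma adjusted p = 0.060, not called).

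EIF4G2, also called DAP5, resembles the scaffold but lacks the part that binds eIF4E. It read 12.20, 12.10 and 11.79 in knockout cells and 12.44, 12.38 and 12.17 in rescued cells. The 18 h array was the lowest of each line. The change at 18 h was -0.33 (SE 0.07, 1.26-fold, limma adjusted p = 0.0097), and from 6 h to 18 h -0.26 (limma adjusted p = 0.035). The latter was called in 5 of 13 alternatives, with adjusted p from 0.0016 to 0.19, and leaving out any 1 array other than the rescued 18 h array ended the call (adjusted p from 0.077 to 0.18). A second EIF4G2 probe set, at 6.27 to 6.35 on all arrays, showed a change of 0 at 18 h, and the dimmest, at 2.69 to 2.98, was not tested. Without the knockout vehicle array neither scaffold gene was called at 18 h. EIF4G1 then changed by -0.33 (adjusted p = 0.11, range over 13 alternatives 0.0021 to 0.11) and EIF4G2 by -0.29 (0.10, range 0.00021 to 0.11).

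EIF4EBP2, one of the proteins that hold eIF4E away from the scaffold, moved the other way. Its main probe set read 8.04, 8.11 and 8.53 in knockout cells and 7.99, 8.08 and 8.44 in rescued cells. Both 18 h arrays were above all others. The rise at 18 h was 0.47 (SE 0.06, 1.39-fold, limma adjusted p = 0.0023), of which 0.39 came between 6 h and 18 h (limma adjusted p = 0.0088). Without the knockout 6 h array the later step was 0.37 and not called (adjusted p = 0.070, range over 13 alternatives 0.0025 to 0.070).

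The probe sets of EIF4EBP2 did not move together. The set 224645_at rose by 0.58 (limma adjusted p = 0.0018 over all probe sets), whereas 208770_s_at, nearly as bright as the main set at 8.05 to 8.16, differed by -0.03 (limma adjusted p = 0.73) and 208769_at by 0.05 (0.60). Thus 2 of 4 probe sets bright enough to test rose. The mean of all 5 sets rose by 0.19, less than the main set by more than 1.5 times. The position of the probe sets along the transcript was not analysed here.

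**Figure D2:**
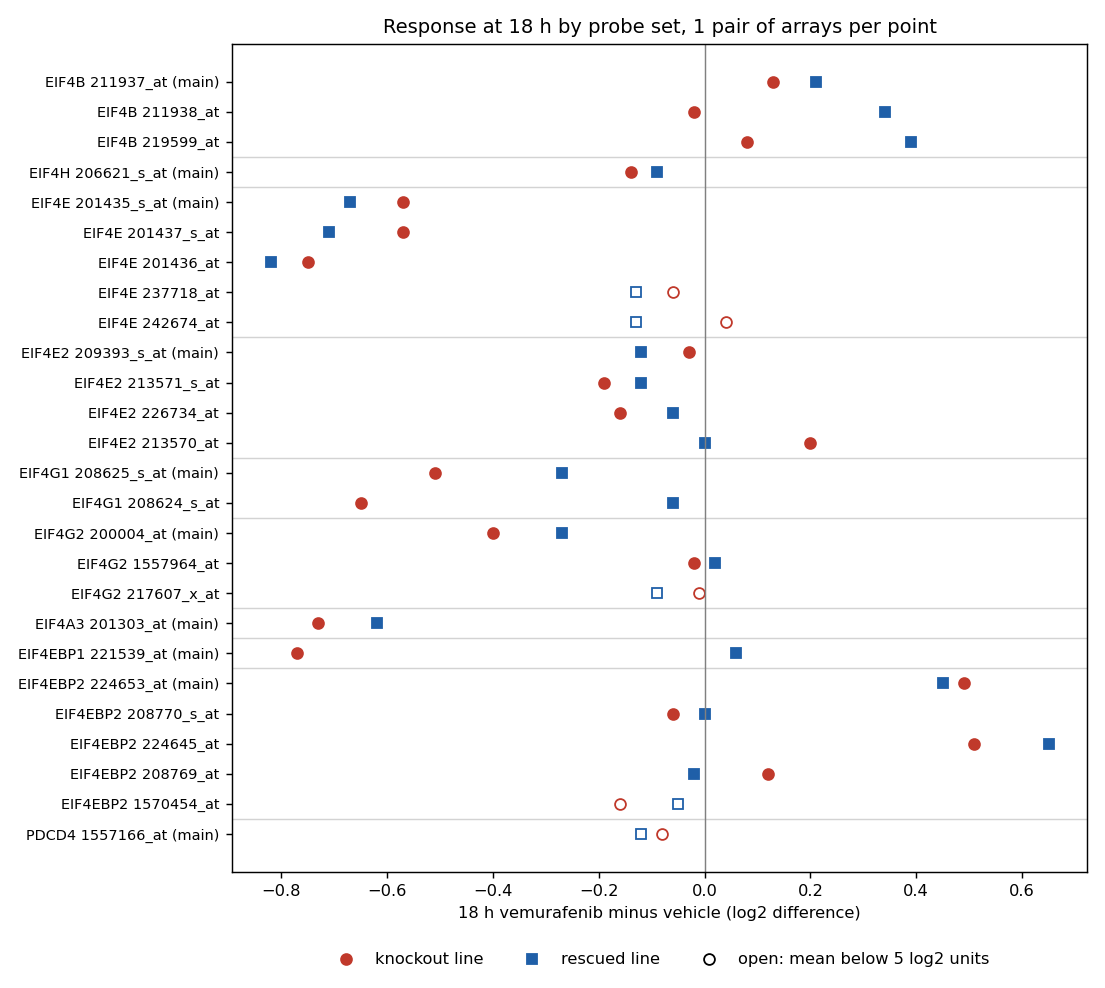
Change from vehicle to 18 h (horizontal axis, log2 difference) for each of the 26 probe sets, grouped by gene, with circles for knockout cells, squares for rescued cells and open symbols for sets with a mean below 5 log2 units. The 3 bright EIF4E sets lie between -0.82 and -0.57 in both lines, while the EIF4EBP2 sets fall into 2 above 0.4 and 3 near 0.

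The members that did not pass at 18 h had small changes, apart from EIF4EBP1. EIF4H, a helicase cofactor related to EIF4B, read 11.65 to 11.81 on all arrays and differed by -0.11 (95% interval -0.27 to 0.04, limma adjusted p = 0.17). EIF4E2, a cap-binding relative of EIF4E that represses translation, read 9.51 to 9.64 and differed by -0.08 (-0.23 to 0.08, 0.36). These intervals leave out the -0.62 measured for EIF4E, but the difference between genes was not itself tested.

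Another EIF4E2 probe set, 226734_at, went down and partly back. It read 7.46, 7.09 and 7.29 in knockout cells and 7.40, 7.06 and 7.34 in rescued cells. Both 6 h arrays were the lowest. It fell by 0.36 at 6 h (limma adjusted p = 0.026) and rose by 0.25 from 6 h to 18 h (limma adjusted p = 0.042), while the main set differed by -0.01 and -0.06 at the same steps. Both comparisons share the 6 h arrays.

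PDCD4 had 1 single-symbol probe set, and it read 2.53, 2.67 and 2.45 in knockout cells and 2.53, 2.40 and 2.41 in rescued cells. These levels are far below the array medians, so nothing is said of a change. The other 4 PDCD4 probe sets also carry the symbol of a microRNA gene and were not used here.

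The promoters of the members called at 18 h, and of EIF4B as the knocked-out gene, are shown because they share a short motif or lack it. Of 5 motifs searched, the one marked is CACGTG, the E-box bound by MYC and related factors, which reads the same on both strands. It was looked for in the 250 bases before each transcript start in RefSeq's promoter table (GRCh38.p14), where 9 of the 10 members have 13 windows. Capitals mark each CACGTG.
EIF4E, chr4:98929134-98929383, minus strand: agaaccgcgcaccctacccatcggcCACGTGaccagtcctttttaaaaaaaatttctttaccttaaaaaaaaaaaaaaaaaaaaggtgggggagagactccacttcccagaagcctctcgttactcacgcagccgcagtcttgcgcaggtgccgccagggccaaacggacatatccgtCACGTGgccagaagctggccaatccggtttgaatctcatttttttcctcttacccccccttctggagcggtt
EIF4A3, chr17:80147129-80147378, minus strand: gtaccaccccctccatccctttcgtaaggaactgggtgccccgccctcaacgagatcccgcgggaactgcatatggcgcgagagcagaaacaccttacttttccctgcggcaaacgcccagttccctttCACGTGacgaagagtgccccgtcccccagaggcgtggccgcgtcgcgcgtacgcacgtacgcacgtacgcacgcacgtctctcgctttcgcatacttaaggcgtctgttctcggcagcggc
EIF4G1, first start, chr3:184314356-184314605, plus strand: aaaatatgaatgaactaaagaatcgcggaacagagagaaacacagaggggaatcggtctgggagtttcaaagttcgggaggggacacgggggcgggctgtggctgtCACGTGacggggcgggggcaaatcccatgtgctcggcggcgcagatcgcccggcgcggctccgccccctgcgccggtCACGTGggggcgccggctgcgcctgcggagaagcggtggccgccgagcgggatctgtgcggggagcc
EIF4G2, first start, chr11:10808927-10809176, minus strand: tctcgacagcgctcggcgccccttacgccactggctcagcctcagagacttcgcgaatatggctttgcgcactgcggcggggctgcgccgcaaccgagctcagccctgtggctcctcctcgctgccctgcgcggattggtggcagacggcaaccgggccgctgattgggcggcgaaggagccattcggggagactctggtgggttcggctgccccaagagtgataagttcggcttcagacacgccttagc
EIF4EBP2, chr10:70403895-70404144, plus strand: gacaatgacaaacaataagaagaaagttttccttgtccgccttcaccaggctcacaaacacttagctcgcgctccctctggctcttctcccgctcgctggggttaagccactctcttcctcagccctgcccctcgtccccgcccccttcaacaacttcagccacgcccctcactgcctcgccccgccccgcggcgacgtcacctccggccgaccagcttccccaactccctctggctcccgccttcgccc
EIF4B, chr12:53006206-53006455, plus strand: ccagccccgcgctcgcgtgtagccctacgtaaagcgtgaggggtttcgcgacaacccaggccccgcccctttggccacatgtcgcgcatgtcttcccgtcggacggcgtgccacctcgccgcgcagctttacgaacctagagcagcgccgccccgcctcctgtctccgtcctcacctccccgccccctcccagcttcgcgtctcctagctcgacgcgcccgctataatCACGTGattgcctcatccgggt

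The E-box began 225 and 72 bases before the start of EIF4E, 121 before that of EIF4A3 and 144 and 67 before the first start of EIF4G1. It was in the windows of 3 of the 4 members that fell, and not in those of EIF4G2 or of EIF4EBP2, which rose. It was also 22 bases before the start of EIF4B and 199 before that of EIF4H, neither of which changed past the threshold. Thus 2 of the 3 uncalled members with a window held it. In rescued cells EIF4B mRNA can also come from the lentiviral copy, so its change does not describe this promoter alone. In all, 5 of the 9 members held the E-box, in 5 of 13 windows, against 6.34% of all 35116 windows in the table. That share was not matched for base composition or expression. Of the other motifs searched on both strands, the ETS core CCGGAAG was in 1 of 13 member windows (EIF4E2) and 8.52% of all windows. The cyclic AMP response half-site TGACGT was in 1 (EIF4EBP2) and 7.1%, and the AP-1 site TGANTCA in 1 (EIF4G1) and 6.57%. The GC box GGGCGG was in 10 of 13 member windows, from 8 members, and 42.6% of all windows. The matches describe the letters of these windows only, and binding was not measured.

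At 6 h the same genes had moved less. No member was called by limma at 6 h (0 of 9), where 16.2% of all genes were (7.34% higher and 8.82% lower). At an unadjusted p under 0.05 there were 2 members, EIF4E at -0.29 (adjusted p = 0.084) and EIF4A3 at -0.18 (adjusted p = 0.15), and 32.7% of all genes. Vehicle and 6 h arrays did not overlap for 3 of the 9 members, against 56% of all genes. The 2 further EIF4E probe sets were called at 6 h when all probe sets were tested, at -0.37 and -0.34 (limma adjusted p = 0.031 and 0.045). With a trended and robust variance prior EIF4E and EIF4A3 were called too (adjusted p = 0.022 and 0.043, lowest of 13 alternatives that reached 0.45 and 0.54). The main EIF4E set changed at 6 h by -0.15 in knockout cells and by -0.43 in rescued cells. This gap of 0.29 in log2 change, from 1 pair of arrays per line, was equalled in size by 10.6% of genes. For 201437_s_at the gap was 0.22 (-0.23 and -0.45). For 201436_at it went the other way, at -0.11 (-0.42 and -0.31). Between 6 h and 18 h, 4 of the 9 members changed (34% of all genes). Of these 3 fell and 1 rose, where 14.9% of all genes fell and 19% rose. Centring moved the higher share of these calls over all genes from 56% to 37.3%, with 4 members then lower and 1 higher.

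Probe sets were counted in the same way as genes. Of the 21 bright member sets, 0 rose and 3 fell at 6 h by limma, against 5.99% and 8.65% of all 24979 sets (14.6% in either direction). At 18 h 2 rose and 6 fell, against 25.3% and 24.5% (49.8% in either direction). From 6 h to 18 h 3 rose and 5 fell, against 16.7% and 14.9% (31.6%). Between the lines 0 were higher and 1 was lower in knockout cells, against 1.12% and 0.584% (1.71%). The lower set was the main set of EIF4B, the gene returned to the rescued cells by design.

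**Figure D3:**
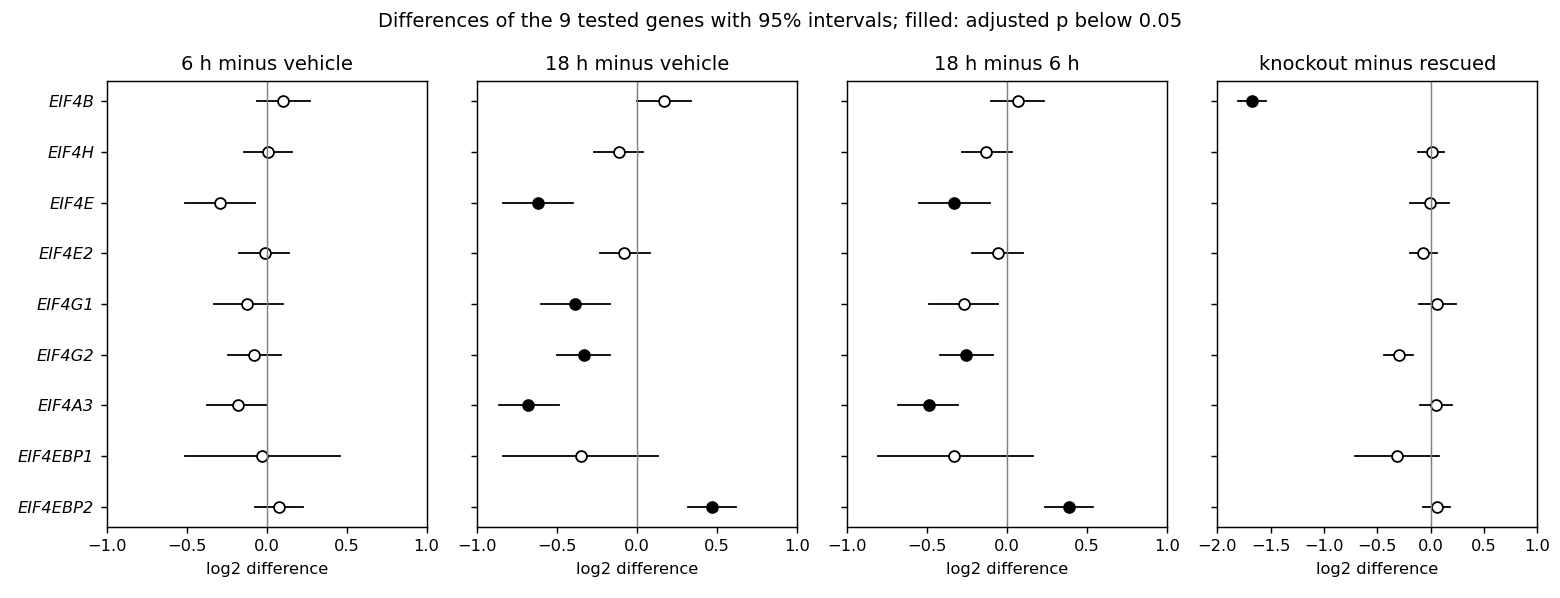
Differences of the 9 tested members in the 4 comparisons (horizontal axis, log2 difference; the axis of the last panel is wider), with 95% intervals from the additive fit and filled symbols for an adjusted p below 0.05. No symbol is filled at 6 h, 5 are at 18 h against vehicle, 4 at 18 h against 6 h, and EIF4B alone is in the comparison of the lines.

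Between the lines EIF4B, the gene that was knocked out and returned, was the only member called (1 of 9, against 2.5% of all genes, 1.44% higher and 1.06% lower in knockout cells, the higher share of calls being 57.6%, or 45.6% after centring). Its main probe set did not overlap between the lines, as for 8.4% of all genes, at 8.40 to 8.53 in knockout cells and 10.07 to 10.28 in rescued cells. The difference, knockout minus rescued, was -1.68 (SE 0.05, limma adjusted p = 0.0056). Wild-type eIF4B was returned to the rescued cells only, so a difference in EIF4B was built into the design. The call is a check of the lines and not a result about the group. Leaving out either 6 h array gave -1.71 (adjusted p = 0.062) and either 18 h array -1.64 (0.082), with 1 residual degree of freedom in each case. With the mean of its 3 probe sets, EIF4B differed by -0.44.

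The other 2 EIF4B probe sets were higher, not lower, in knockout cells under vehicle. The set 211938_at read 8.46, 8.72 and 8.45 in knockout cells and 8.12, 8.47 and 8.46 in rescued cells, and 219599_at read 6.11, 6.28 and 6.19 against 5.77, 6.13 and 6.17. The gap between the lines was 0.34 and 0.33 under vehicle and -0.02 and 0.02 at 18 h. In rescued cells both sets were higher with drug, by 0.34 and 0.39 at 18 h, and in knockout cells by -0.02 and 0.08. Neither set was called for line or drug, and these gaps at a single time rest on 1 array each. The main probe set, which separates the lines, differed by 0.17 at 18 h (95% interval 0 to 0.34, limma adjusted p = 0.083).

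EIF4G2 was lower in knockout cells in all 3 pairs, by 0.24, 0.29 and 0.38 log2 units under vehicle, 6 h and 18 h. The ranges of the lines overlapped. The difference of -0.30 (SE 0.05, 95% interval -0.44 to -0.17) missed the threshold (limma adjusted p = 0.061). It was called in 4 of 12 alternatives, with adjusted p from 0.0031 to 0.19. A same sign in all pairs was seen in 47% of genes, and 3.03% of genes had a more negative difference. The second EIF4G2 probe set differed by -0.02.

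For the other members the lines were close. EIF4H differed by 0.01 (95% interval -0.12 to 0.13), EIF4E by -0.01 (-0.19 to 0.17), EIF4A3 by 0.05 (-0.10 to 0.20), EIF4G1 by 0.06 (-0.11 to 0.24), EIF4EBP2 by 0.06 (-0.07 to 0.18) and EIF4E2 by -0.07 (-0.19 to 0.06). EIF4EBP1 had the widest interval, at -0.32 (-0.71 to 0.08, limma adjusted p = 0.30).

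EIF4EBP1 is the 4E-BP that is the standard readout of mTORC1 activity in its phosphorylated form. It is measured by 1 probe set, which read 11.02, 10.81 and 10.25 in knockout cells and 10.94, 11.09 and 11.00 in rescued cells. The knockout array at 18 h was the lowest of the 6, and the other 5 lay between 10.81 and 11.09. The change at 18 h was -0.77 in knockout cells and 0.06 in rescued cells, a difference in response of -0.83 log2 units. Of all genes tested 0.74% had a difference of that size or more in either direction. EIF4EBP1 had the largest such difference of the tested members and was singled out after the values were seen. The share is therefore a rank from single arrays and not a test. Responses of opposite sign at both times were seen in 4.63% of genes.

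A term for a different drug response in knockout cells, shared by 6 h and 18 h, was also fitted. It was first added after these data had been seen, so it describes the members and supports nothing by itself. For EIF4EBP1 the term was -0.60 (SE 0.22, 95% interval -1.16 to -0.03). Its unadjusted p was 0.042 and its limma adjusted p was 1.0. By that test 0 of 13506 genes were called and 2.24% had an unadjusted p under 0.05, and EIF4EBP1 was the only 1 of the 9 members among them. EIF4EBP1 was not called for the drug (-0.35 at 18 h, 95% interval -0.84 to 0.13, limma adjusted p = 0.18). Without the rescued vehicle array it was called at -0.65 (adjusted p = 0.036) and without the rescued 18 h array at -0.68 (0.024), over a range of 0.024 to 0.89 in 13 alternatives.

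**Figure D4:**
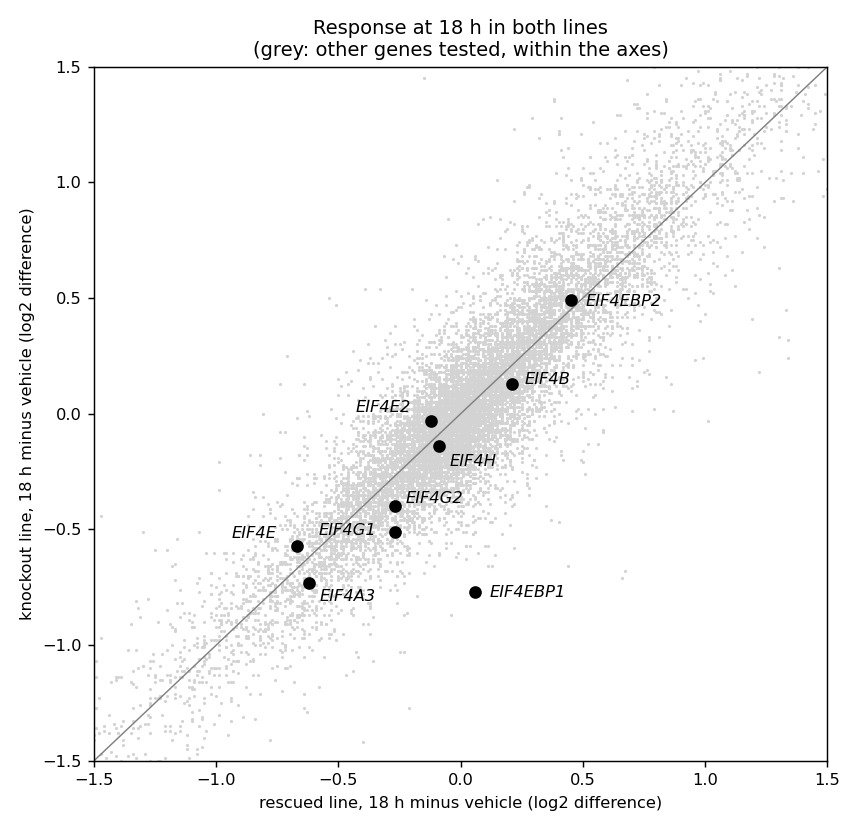
Change from vehicle to 18 h in rescued cells (horizontal axis) and in knockout cells (vertical axis), both as log2 differences between 1 pair of arrays; black points are the 9 tested members, grey points the other genes within the axes, and the line marks equal change. EIF4EBP1 lies far below the line (-0.77 against 0.06) and the other 8 members lie within 0.24 of it.

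The 3 genes most like EIF4B over the 6 arrays, by Pearson correlation of log2 levels among all genes tested, were SERPINA1 (r = 0.989), CD47 (0.9875) and TRIM21 (0.9847). For EIF4A3, the member that fell most, they were TMEM138 (0.9994), BCCIP and NOP16 (both 0.9992), and for EIF4EBP2 they were RAB26 (0.9993), SEPTIN8 (0.9992) and FAM234A (0.9991). The arrays share lines and treatments, so these values only say which genes followed the same order.

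Partners of the complex moved in both directions at 18 h. Of 26 genes that bind eIF4F, the cap or the poly(A) tail or modify these factors, 20 were tested, and 7 rose and 4 fell by limma, where 28.1% of all genes rose and 23.3% fell. The median change was 0.07, and 0.01 over all genes. These shares lie near those of all genes. MKNK1 and MKNK2, the kinases that phosphorylate eIF4E, rose by 0.69 and 0.62 (limma adjusted p = 0.00091 and 0.013). EIF4E3, another member of the cap-binding family, rose by 0.59 (0.011) and CYFIP1, an eIF4E-binding repressor, by 0.35 (0.0073). ZNF598, a ubiquitin ligase that senses collided ribosomes and works with EIF4E2, fell by 0.73 (0.0014), the helicase DDX3X by 0.41 (0.0084), the 5' TOP mRNA binder LARP1 by 0.31 (0.0093) and the nuclear cap-binding protein NCBP1 by 0.26 (0.021). At 6 h DDX3X alone was called (-0.34, 0.041). EIF4A1, EIF4G3, EIF4EBP3 and PABPC4 had no single-symbol probe set, and those of EIF4A2 and PAIP2B were too dim to be tested. Probe sets with several symbols were not used, so this does not give the level of these genes.

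For partners of EIF4A3 in the exon junction complex, 6 of 10 genes were tested, and 4 fell and 1 rose at 18 h, where 23.3% of all genes fell and 28.1% rose. The median was -0.32, and 0.01 over all genes. MAGOHB changed by -0.81 and RBM8A, its partner in the core, by -0.57 (limma adjusted p = 0.0035 and 0.0028). RNPS1 fell by 0.35 and SRRM1 by 0.29 (0.0059 and 0.012). PYM1, which takes the complex apart, rose by 0.36 (0.0071), and it had risen by 0.33 at 6 h (0.031).

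Genes of mTORC1, the kinase that phosphorylates the 4E-BPs, and of its regulators moved mostly upwards. Of 18 genes 17 were tested, and 11 rose and 1 fell at 18 h, where 28.1% of all genes rose and 23.3% fell. The median was 0.36, and 0.01 over all genes. The 4 highest were the inhibitors DEPTOR (0.99, limma adjusted p = 0.0032), SESN1 (0.84, 0.00057), SESN2 (0.72, 0.048) and TSC1 (0.66, 0.00097). RHEB, the small GTPase that activates the kinase, fell by 0.23 (0.025). Genes on the activating side also rose, namely the kinase MTOR itself (0.40, limma adjusted p = 0.0045) and the Rag GTPases RRAGA (0.64, 0.0012), RRAGB (0.43, 0.037) and RRAGD (0.23, 0.038), which are named after their values were seen. SESN3, a relative of SESN1 and SESN2, was below the filter on the mean and not tested. It read 3.34, 3.62 and 6.18 in knockout cells and 3.02, 3.87 and 5.44 in rescued cells. At 6 h SESN2 and SESN1 were called, at 1.09 and 0.57. Under vehicle and at 6 h SESN2 read 7.51 and 8.10 in knockout cells, and 7.42 and 9.01 in rescued cells. The line by drug term was -0.79 for SESN2, -0.47 for DEPTOR and -0.46 for MKNK2. These had an unadjusted limma p under 0.05, as 2.24% of all genes did, and were not called. Between the lines 0 genes of the 3 lists were called by limma, against 2.5% of all genes. At an unadjusted p under 0.05 there were 1 of 20 eIF4F partners, 1 of 6 exon junction genes and 5 of 17 mTORC1 genes, against 23% of all genes.

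**Figure D5:**
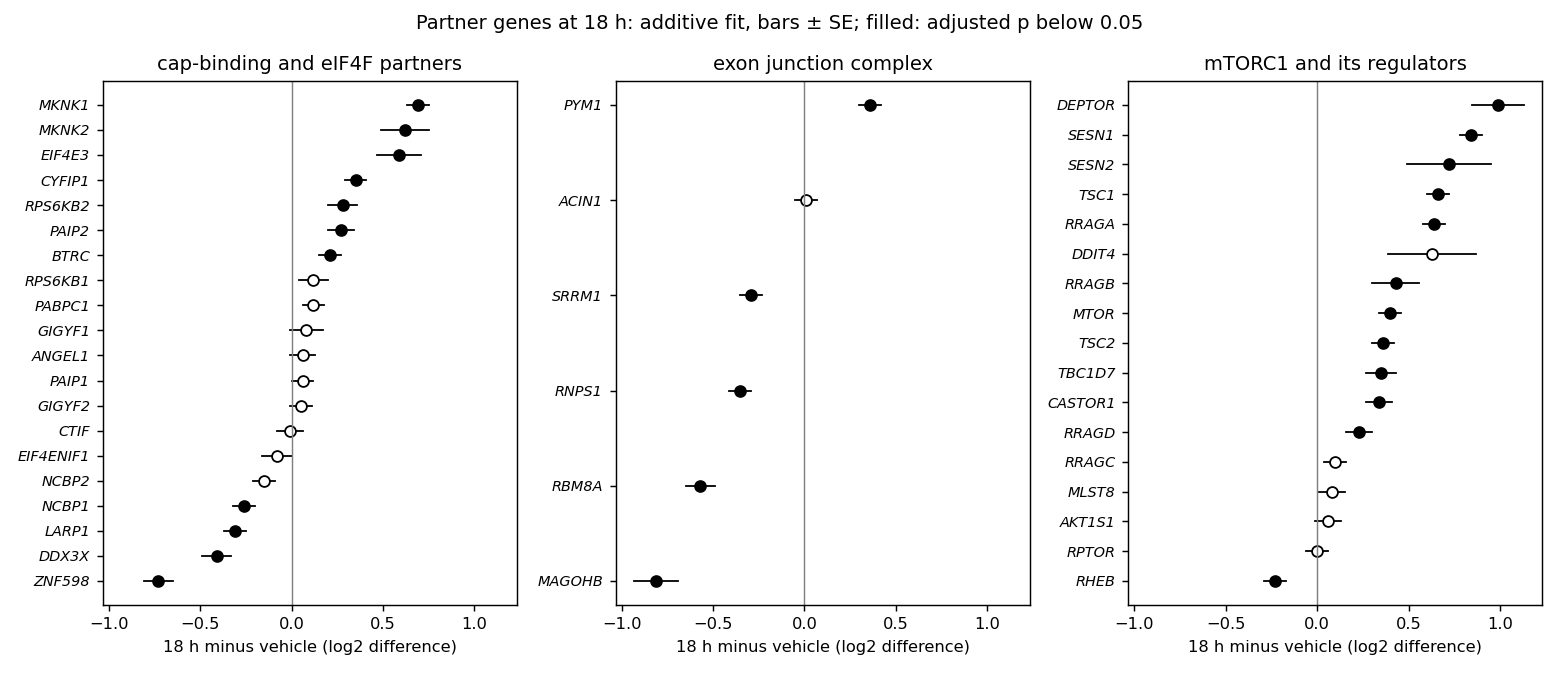
Change from vehicle to 18 h (horizontal axis, log2 difference, bars ± SE of the additive fit) for the tested genes of the 3 partner lists, ordered by change within each list, with filled symbols for an adjusted p below 0.05. MKNK1 is at the top of the first list and ZNF598 at the bottom, MAGOHB is the lowest of the exon junction genes, and RHEB is the only filled mTORC1 gene below 0.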

How the data were processed

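Total RNA of 6 samples was hybridised as biotin-labelled cRNA, per the labels. The authors deposited RMA intensity values on a linear scale (3.01 to 19000), and RMA and affy are named in the submitters' processing notes; no version of either is given. RMA brings the arrays to one distribution, so a shift of most mRNAs together would be hidden. Here log2 was taken. Of 54675 probe sets, 62 controls were left out, 1801 carry several symbols and name no gene, and 41091 carry 1 symbol (platform annotation), of which 41037 matched RefSeq's GRCh38.p14 gene table by identifier. The probe set with the highest mean represented each gene, and 13506 of 19775 genes passed a filter on the mean (at least 5 log2 units) and were tested.

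An additive model of line and treatment was fitted to all 6 arrays with limma 3.58.1 in R 4.3.3 (2 residual degrees of freedom and 3.19 from the prior) with Benjamini-Hochberg adjustment and a threshold of 0.05. A model with a line by drug term had 1 residual degree of freedom. The fit was tested on simulated data. The members and lists were chosen with earlier results of these data known. All members were named; of the partner lists, genes past the threshold, up to 4 each way per comparison. EIF4EBP1 has no window in the promoter table used. Alternatives changed the filter, the probe set rule, the log offset, the centring, the variance prior and the arrays included.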

Additional observations from a re-analysis of the deposited data

Results flagged for a closer look

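EIF4EBP1 was singled out because its drug response had opposite signs in the lines at both times. In the knockout line it changed by -0.21 at 6 h and -0.77 at 18 h, and in the rescued line by 0.15 and 0.06 (log2 differences between single arrays). Such opposite signs at both times were seen in 4.63% of the 13506 genes tested. The term described next was first added after these data had been seen, so it is a description only. The term for a different response shared by both times had an unadjusted limma p of 0.042 and an adjusted p of 1.0, so the difference between the lines did not pass the test after adjustment.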

How the results depend on the processing

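Up to 13 alternatives were tried per comparison. They were no filter or a mean of at least 6, the mean of a gene's probe sets and 16 added before log2. Further ones were arrays centred on a median, a trended and robust variance prior, the compared arrays alone, and each array left out in turn. In each drug comparison, using the compared arrays alone gave the same values as leaving out either array of the remaining treatment. These alternatives are therefore not separate checks, and the counts over 13 include them. At 18 h EIF4E, EIF4A3 and EIF4EBP2 were called under all 13, with adjusted p up to 0.026, 0.013 and 0.032. EIF4G2 was not called at 18 h with the mean of its probe sets (-0.13, adjusted p = 0.11), nor EIF4EBP2 from 6 h to 18 h (0.19, 0.051). EIF4B and EIF4H were called at 18 h with the trended prior (adjusted p = 0.039 and 0.031). Members called went from 0 to 2 at 6 h with the trended prior, from 4 to 2 from 6 h to 18 h without a filter, and from 1 to 2 between the lines (EIF4G2 added) with the mean of 6, the added 16, centring and the trended prior. All genes called went from 2182 to 1398 at 6 h without a filter. Between the lines they went from 337 to 58 without a filter, 513 with the mean of 6, 541 with the added 16 and 1196 with the trended prior. For the line by drug term they went from 0 to 3 with centring and 9 with the trended prior, 0 of them members.

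Leaving out 1 array at a time, members called ranged from 3 (without the knockout vehicle array) to 6 at 18 h, and from 0 (without the knockout 6 h array; 2 without the knockout 18 h array) to 5 from 6 h to 18 h. Between the lines they ranged from 0 (without any 6 h or 18 h array) to 1. All genes called ranged from 594 to 2530 at 6 h, 4310 to 6563 at 18 h, 1435 to 4252 from 6 h to 18 h and 0 to 50 between the lines. Signs turned only for differences that were not called. With an array left out these were, at 6 h, EIF4H (-0.01 to 0.03), EIF4E2 (-0.04 to 0.01) and EIF4EBP1 (-0.32 to 0.27), and, between the lines, EIF4H (-0.01 to 0.03), EIF4E (-0.09 to 0.05) and EIF4A3 (0 to 0.1). With the mean of probe sets they were EIF4B (-0.03) and EIF4E2 (0.02) from 6 h to 18 h, EIF4E between the lines (0.01) and EIF4EBP2 for the line by drug term (-0.05). With centring they were EIF4B from 6 h to 18 h (-0.03), EIF4H between the lines (-0.03), and EIF4B (0.01), EIF4H (0) and EIF4A3 (0) for the line by drug term.

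Centring moved the median of all genes at 18 h from 0.01 to -0.09, and from 0 to -0.1 from 6 h to 18 h. Both medians lay farther from 0 after centring than before. The medians of all probe sets (5.2 to 5.22) differ by less than these steps, so they were not the medians used. The fit has line and treatment as terms, so drug comparisons are made within lines and line comparisons within treatments. No further block was fitted, since the labels number no replicates and each group is 1 array. With 2 residual degrees of freedom, the number of arrays limits the precision. Where no alternative's own construction (fewer arrays or other genes tested) shows it, the cause was not tested.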
